A study of Homo sapiens with 12 samples.

Results

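The 10 genes described here encode growth factor receptor tyrosine kinases: EGFR, ERBB2, ERBB3, MET, PDGFRA, PDGFRB, FGFR1, IGF1R, KIT and MERTK. They were chosen by name, through the Ensembl identifiers of those symbols, and are 10 of 36675 genes listed in the tables of 2 human melanoma cell lines. All 10 are listed for A375, and 8 are also listed for CHL1, whose table has no row for PDGFRA or KIT. Neither table lists a gene at 0 in all of its libraries. RNA was sequenced in 4 groups of 3 libraries. The palbociclib-resistant A375 derivative, A375AR991, had grown in rising concentrations of palbociclib for 7 months, and was set against parental A375 grown without it. The resistant CHL1 derivative, CHL1AR991, had grown in rising concentrations for 3 months, and was set against parental CHL1 grown without it. Palbociclib inhibits the cell cycle kinases CDK4 and CDK6. Both derivatives were kept in 4 µM palbociclib, and the labels give 72 h without drug before RNA extraction. Each derivative is a single resistant line per parent, so a difference holds for that line. Whether the derivatives are clones, and whether the 3 libraries of a group came from separate cultures, is not given in the sources used here. The p-values below therefore measure the spread between these libraries, which may be technical. As background, A375 carries an activating BRAF mutation and CHL1 does not.

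Receptor tyrosine kinases sit in the cell membrane, pair up when a growth factor binds outside the cell, and phosphorylate each other inside it. Adaptor proteins dock on the phosphorylated sites and pass the signal to the RAS-MAPK and PI3K-AKT pathways, which drive growth and survival in melanoma. In BRAF-mutant melanoma, raised EGFR or PDGFRB and supply of the MET ligand HGF are known from drug tolerance studies with BRAF inhibitors, and KIT and its ligand are known for the survival of normal melanocytes.

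The promoters of 5 of the receptors are shown because their mRNAs carry the results below. EGFR and MERTK separate the lines, MET differs in both resistant derivatives, and the PDGF receptor pair moved in opposite directions in A375. The sequences are from RefSeq on build GRCh38.p14 and run from 250 bases before to 50 bases after the gene start of that table, which need not be the start used most in these cells. Of the 10 genes, 8 had an entry, and ERBB3 and FGFR1 had none. Capitals mark the letters found in a search, on both strands, for the GC box GGGCGG, the AP-1 site TGANTCA, the E-box CACGTG that MITF is known to bind, and the TATA box TATAAA. Overlapping matches were counted separately. The EGFR promoter is chr7:55018767-55019066 on the plus strand, the MERTK promoter chr2:111898357-111898656 on the plus strand, and the MET promoter chr7:116671946-116672245 on the plus strand. The PDGFRA promoter is chr4:54229043-54229342 on the plus strand, and the PDGFRB promoter chr5:150155796-150156095 on the minus strand.
EGFR: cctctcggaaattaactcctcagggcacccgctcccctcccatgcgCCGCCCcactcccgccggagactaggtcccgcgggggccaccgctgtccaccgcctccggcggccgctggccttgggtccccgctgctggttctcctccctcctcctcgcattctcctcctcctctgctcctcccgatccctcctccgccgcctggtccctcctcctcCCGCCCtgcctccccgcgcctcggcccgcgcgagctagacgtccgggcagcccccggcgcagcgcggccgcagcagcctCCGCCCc
MERTK: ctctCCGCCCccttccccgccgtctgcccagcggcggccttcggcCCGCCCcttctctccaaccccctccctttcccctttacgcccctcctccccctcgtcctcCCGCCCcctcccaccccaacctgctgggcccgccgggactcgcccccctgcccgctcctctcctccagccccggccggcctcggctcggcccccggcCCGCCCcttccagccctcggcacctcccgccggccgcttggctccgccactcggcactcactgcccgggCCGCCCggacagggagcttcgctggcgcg
MET: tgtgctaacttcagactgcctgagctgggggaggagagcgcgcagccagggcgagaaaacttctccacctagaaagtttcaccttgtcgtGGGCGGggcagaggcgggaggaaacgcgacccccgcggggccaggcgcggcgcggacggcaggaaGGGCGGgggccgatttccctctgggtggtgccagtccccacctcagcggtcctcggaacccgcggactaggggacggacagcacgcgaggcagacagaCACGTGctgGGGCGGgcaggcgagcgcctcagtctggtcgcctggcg
PDGFRA: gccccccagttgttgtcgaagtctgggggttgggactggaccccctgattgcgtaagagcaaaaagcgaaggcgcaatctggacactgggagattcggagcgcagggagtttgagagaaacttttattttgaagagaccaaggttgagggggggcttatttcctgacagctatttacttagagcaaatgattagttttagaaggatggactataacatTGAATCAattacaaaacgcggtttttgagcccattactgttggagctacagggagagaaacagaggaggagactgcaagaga
PDGFRB: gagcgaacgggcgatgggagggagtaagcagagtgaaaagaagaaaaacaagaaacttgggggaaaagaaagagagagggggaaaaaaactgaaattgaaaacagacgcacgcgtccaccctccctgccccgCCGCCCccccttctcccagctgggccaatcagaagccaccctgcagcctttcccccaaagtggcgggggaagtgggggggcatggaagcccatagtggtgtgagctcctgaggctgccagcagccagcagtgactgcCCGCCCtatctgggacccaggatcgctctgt
The promoters of the PDGF receptors differ in composition. The PDGFRA window has a GC content of 47%, 8 CpG dinucleotides, no GC box and 1 AP-1 match, which begins 32 bases before the start. The PDGFRB window has a GC content of 59.3%, 11 CpG dinucleotides and 2 GC boxes. The EGFR window has 75.3% GC and 3 GC boxes, the MERTK window 78.3% GC and 5 GC boxes, and the MET window 69.3% GC, 3 GC boxes and 1 CACGTG match. Over the 35116 promoters of the table the median GC content was 58.7%. The GC box is held by 45% of those promoters, the AP-1 site by 7.71%, the MITF E-box by 7.26% and the TATA box by 11.5%. These matches are a description of the letters in the window.

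Total counts ran from 25398920 to 29812686 per library, and 3 counts, the floor used here, stood for 0.101 to 0.118 CPM (counts scaled to library size) in a library. Levels below are CPM after TMM scaling of the 12 libraries (normalised CPM). Intervals on counts cover counting error only. The 7 melanocyte markers had summed levels of 246 to 380 CPM in resistant A375 and 399 to 540 CPM in parental A375, and of 979 to 1166 CPM in resistant CHL1 and 1019 to 1253 CPM in parental CHL1. The lineage factors SOX10 and MITF made up most of them, and TYR was not listed in A375. The markers did not move together. In the edgeR test described below, TYRP1 rose by 3.02 on the log2 scale in resistant A375 (adjusted p = 0.00012). MITF fell by 0.48 there (adjusted p = 0.042), a call lost in 5 of 13 alternatives. In CHL1 DCT fell by 1.22 and MITF by 0.38, the second lost in the fit to all 12 libraries. Keratinocyte and epithelial markers summed to 64.9 to 70.2 CPM in resistant A375 and 76.9 to 94 CPM in parental A375, and to at most 14.1 CPM in CHL1. By the same test KRT5 fell by 5.91 and KRT14 by 2.35 in A375. In CHL1 KRT14 rose by 1.07 and KRT10 fell by 0.35, the second lost in 3 of 13 alternatives. Leukocyte markers summed to at most 10.7 CPM and endothelial markers to at most 1.06 CPM in any library.

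Resistant A375 had more PDGFRA mRNA, and less PDGFRB and MET mRNA, than parental A375. Resistant CHL1 had less MET and less FGFR1 mRNA than parental CHL1. MET was the receptor called lower in both derivatives. A receptor is said to have risen or fallen where edgeR's quasi-likelihood test gave a Benjamini-Hochberg adjusted p below 0.05 over all genes tested in that comparison. By that rule 3 of the 9 receptors tested in A375 changed, 1 up and 2 down, beside 28.3% of all 18086 genes (13.4% up, 14.8% down). In CHL1 2 of the 7 tested changed, both down, beside 21.2% of all 17219 genes (9.11% up, 12.1% down). The receptors' shares, 33.3% of 9 in A375 and 28.6% of 7 in CHL1, are near those of all genes and are not a result about the receptors. The median log2 fold change of resistant over parental was -0.21 over the 9 receptors in A375 and -0.06 over the 7 in CHL1, beside medians of -0.00 and 0.00 over all genes tested. The 3 resistant libraries lay wholly above or below the 3 parental libraries for 5 of the 9 receptors in A375, where 42.8% of all tested genes did so, and for 3 of the 7 in CHL1, where 36.7% did.

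**Figure D1:**
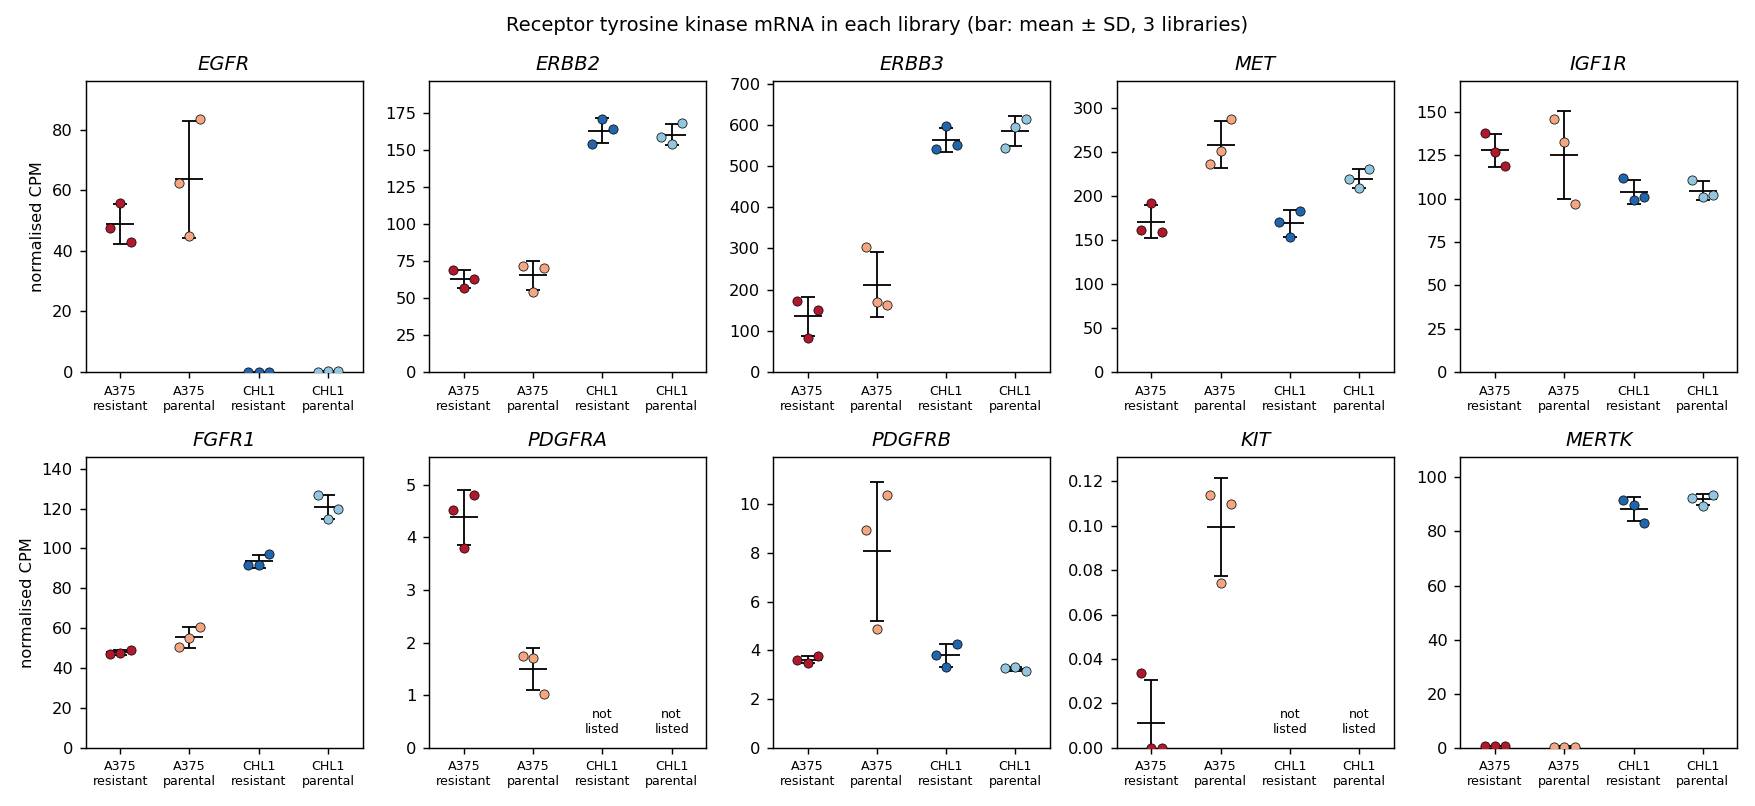
Normalised CPM (y axis, linear, from 0) of each receptor in the 3 libraries of resistant A375, parental A375, resistant CHL1 and parental CHL1 (x axis). Points are libraries and bars the mean ± SD of 3. MET sits between 159 and 192 CPM in resistant A375 and between 236 and 287 CPM in parental A375, and EGFR and MERTK are each near 0 in the line where the other is high.

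**Figure D2:**
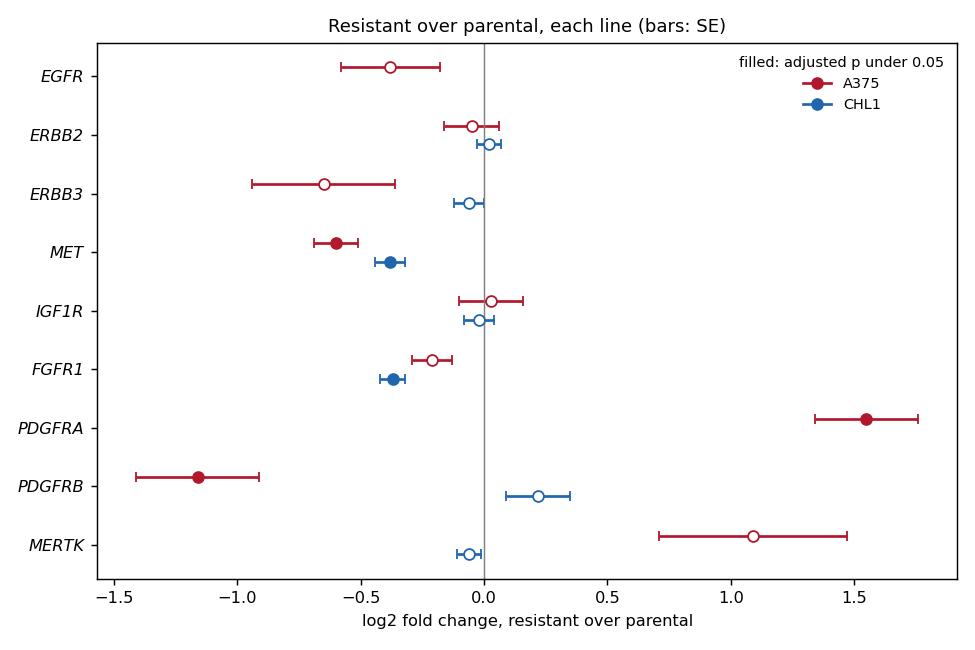
Log2 fold change of resistant over parental (x axis) for each receptor tested (y axis), in A375 and in CHL1. Points are edgeR estimates, bars their SE, and filled points have an adjusted p below 0.05. PDGFRA lies at 1.55 and PDGFRB at -1.16 in A375, and MET is left of 0 in both lines.

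MET is the receptor for hepatocyte growth factor. In A375 its level was 161, 192 and 159 CPM in the resistant libraries, against 236, 251 and 287 CPM in the parental libraries. No resistant library reached the lowest parental library, and MET fell by 0.60 ± 0.09 on the log2 scale (SE, n = 3 each, adjusted p = 0.0017). In CHL1 its level was 170, 153 and 183 CPM in the resistant libraries, against 219, 209 and 230 CPM in the parental libraries. The groups did not overlap there either, and MET fell by 0.38 ± 0.06 (adjusted p = 0.001). Both calls held under all 13 alternative settings in each line. The change in A375 minus that in CHL1 was -0.22 ± 0.12 (adjusted p = 0.23), so a difference in size between the lines was not called. The libraries of the lines are separate and share no controls. Of 15975 genes tested in both lines 379, or 2.37%, were called lower in both, and 273, or 1.71%, higher in both, and MET was among the 379, alone of the 7 receptors tested in both lines. In bulk RNA, fewer cells that express a gene and less of its RNA per cell cannot be told apart.

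HGF, the ligand of MET, was the ligand with the smallest adjusted p in A375. Its counts were 63, 62 and 58 in the resistant libraries, or 2.13, 1.98 and 2.08 CPM. They were 4, 1 and 2 in the parental libraries, or 0.152, 0.0371 and 0.0733 CPM. Every resistant library was far above every parental library. The ratio of the scaled counts was 23.7, with a 95% counting interval of 11.3 to 59.8, and the fitted log2 fold change was 4.50 ± 0.32 (adjusted p = 3.1e-05). HGF had 1 count over the resistant and 1 over the parental CHL1 libraries, which is at or under the floor, and no fold is given there.

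EGFR, ERBB2 and ERBB3 belong to the EGF receptor family, and none of the 3 passed the test in A375, nor did ERBB2 or ERBB3 in CHL1, where EGFR was not tested. ERBB4, the remaining gene of the family, had 8, 7 and 4 counts in resistant A375 against 0, 0 and 1 in parental A375, which was too few for the test. In CHL1 ERBB4 had 60, 50 and 57 counts in the resistant libraries and 47, 46 and 50 in the parental libraries (log2 fold change 0.22 ± 0.17, adjusted p = 0.4). EGFR, the receptor for EGF, TGF-alpha and related factors, had 47.7, 55.9 and 43 CPM in resistant A375, against 62.5, 44.8 and 83.6 CPM in parental A375. Parental library 2 lies within the resistant range, and the log2 fold change was -0.38 ± 0.20 (adjusted p = 0.19). Without that library it was -0.58 with an adjusted p of 0.018. In CHL1, EGFR had 2, 3 and 2 counts in the resistant libraries and 2, 5 and 5 counts in the parental libraries. These are near the floor in both groups and were not tested.

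ERBB2, which has no known ligand of its own and signals as a partner of the other family members, had 69.2, 56.9 and 63.2 CPM in resistant A375 and 71.8, 54.2 and 70.3 CPM in parental A375. It had 154, 171 and 164 CPM in resistant CHL1 and 159, 154 and 168 CPM in parental CHL1. The groups overlapped in both lines. The log2 fold change of ERBB2 was -0.05 (95% interval -0.27 to 0.17, adjusted p = 0.77) in A375 and 0.02 (-0.08 to 0.11, adjusted p = 0.84) in CHL1. ERBB2 shares 571 exon bases with MIEN1 and 194 with PGAP3, both on the opposite strand, and the library kit does not mark strand, so reads there cannot be told apart. MIEN1 fell by 0.33 ± 0.06 (adjusted p = 0.0037) and PGAP3 by 0.56 ± 0.11 (adjusted p = 0.0045) in A375.

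ERBB3 binds neuregulins, has a weak kinase of its own and is known for its PI3K docking sites. It had 172, 82.8 and 151 CPM in resistant A375, against 304, 171 and 162 CPM in parental A375. Resistant library 2 was the lowest and parental library 1 the highest, and resistant library 1 lies within the parental range. The log2 fold change was -0.65 ± 0.29 (adjusted p = 0.14), and it was past the threshold in 2 of 13 alternatives, without a filter on low counts (0.029) and with the replicate numbers as a block (0.0091). In CHL1, ERBB3 had 542, 597 and 550 CPM in the resistant libraries and 544, 594 and 614 CPM in the parental libraries. These overlap, with a log2 fold change of -0.06 (95% interval -0.17 to 0.06, adjusted p = 0.55).

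Of the ligands of this family, HBEGF fell in both lines, EGF rose in CHL1, and BTC and NRG4 rose in A375. HBEGF, which binds EGFR, had 25.7, 29.3 and 26.4 CPM in resistant CHL1, against 51.6, 42.9 and 39.5 CPM in parental CHL1, and fell by 0.72 ± 0.09 (adjusted p = 0.00018). In A375 HBEGF fell by 0.63 ± 0.19 (adjusted p = 0.041), a call lost without resistant library 1 or 3 or parental library 2 or 3 (adjusted p up to 0.14). EGF had 3.12, 3.19 and 3.45 CPM in resistant CHL1, against 1.11, 0.891 and 0.958 CPM in parental CHL1, where its receptor is near the floor. It rose by 1.71 ± 0.16 there (adjusted p = 1.9e-05), against 0.14 ± 0.21 in A375 (adjusted p = 0.69). The change of EGF in A375 minus that in CHL1 was -1.58 ± 0.27 (adjusted p = 0.00058). BTC, which encodes betacellulin, a ligand of EGFR, had 1.18, 1.34 and 1.65 CPM in resistant A375, against 0.722, 0.816 and 0.586 CPM in parental A375. BTC rose by 0.97 ± 0.23 (adjusted p = 0.012), a call kept in all 13 alternatives. The neuregulin gene NRG4 rose by 0.59 ± 0.18 in A375 (adjusted p = 0.038), a call lost with DESeq2 and without resistant library 2 or 3 or parental library 1 or 3 (adjusted p up to 0.11). In CHL1 BTC was at -0.07 ± 0.20 and NRG4 at -0.12 ± 0.28.

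The PDGF receptors had the largest called fold changes of the receptors in A375, in opposite directions. PDGFRA binds PDGF-A, PDGF-B and PDGF-C dimers and is known as a mark of mesenchymal cells. It had 4.52, 3.8 and 4.81 CPM in the resistant libraries, from 134, 119 and 134 counts. The parental libraries had 1.75, 1.71 and 1.03 CPM, from 46, 46 and 28 counts. No resistant library was as low as any parental library, and PDGFRA rose by 1.55 ± 0.21 (2.93-fold, adjusted p = 0.00078), a call that held under all 12 alternatives that gave a value. PDGFRA shares 1533 exon bases with AC058822.1 on the same strand, a locus that is not listed in the tables. Reads over the shared bases may have been left out of its counts, if the authors' annotation held that locus.

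PDGFRB, the receptor for PDGF-B and PDGF-D dimers, had 3.61, 3.48 and 3.77 CPM in resistant A375, against 8.93, 4.9 and 10.4 CPM in parental A375. Parental library 2 was the lowest of the parental libraries, and all 3 lie above all resistant libraries. PDGFRB fell by 1.16 ± 0.25 (adjusted p = 0.0083), with a log2 fold change between -1.42 and -0.93 over 13 alternatives, all past the threshold. In CHL1 PDGFRB had 3.81, 3.33 and 4.28 CPM in the resistant libraries, against 3.29, 3.3 and 3.15 CPM in the parental libraries. The groups did not overlap, but the log2 fold change of 0.22 ± 0.13 was not past the threshold (adjusted p = 0.27). The change of PDGFRB in A375 minus that in CHL1 was -1.39 ± 0.31 (adjusted p = 0.0044) and was called in all 19 alternatives.

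Of the 4 PDGF ligands PDGFD rose and PDGFB fell in A375, and PDGFB and PDGFC fell in CHL1. PDGFD, a ligand of PDGFRB, had 6.72, 6.8 and 7.43 CPM in resistant A375, against 2.55, 3 and 1.54 CPM in parental A375, and rose by 1.56 ± 0.21 (adjusted p = 0.00074). PDGFB had 1.05, 0.383 and 0.969 CPM in resistant A375, against 2.96, 1.89 and 2.75 CPM in parental A375, and fell by 1.67 ± 0.33 (adjusted p = 0.0051). In CHL1 PDGFB had 12.9, 23 and 19.2 CPM in the resistant libraries, against 35, 46.8 and 28.3 CPM in the parental libraries, and fell by 1.00 ± 0.19 (adjusted p = 0.0031). PDGFB was thus called lower in both derivatives. PDGFD did not change by the test in CHL1 (-0.11 ± 0.13, adjusted p = 0.61), and its change in A375 minus that in CHL1 was 1.67 ± 0.25 (adjusted p = 0.00025). PDGFC fell by 0.53 ± 0.11 in CHL1 (adjusted p = 0.006), a call lost in the fit to all 12 libraries (adjusted p = 0.076), and was at 0.13 ± 0.19 in A375 (adjusted p = 0.65). PDGFA had 4.05, 6.61 and 4.85 CPM in resistant A375 and 6.08, 6.01 and 8.94 CPM in parental A375, which overlap (-0.44 ± 0.22, adjusted p = 0.18). In CHL1 PDGFA had at most 12 counts in a library and was not tested.

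Beside PDGFRA, 4 of 7 fibroblast markers tested rose in A375 and 1 fell, where 13.4% of all genes tested rose and 14.8% fell. The 8 markers of the list summed to 40.7 to 51.1 CPM in resistant A375, against 13.6 to 16.5 CPM in parental A375. COL1A2, FAP, LUM and COL3A1 rose, PDPN fell by 1.16 ± 0.34, and 2 were not called. The PDPN call was lost without resistant library 1, 2 or 3 or parental library 3 (adjusted p up to 0.1). COL1A2, a chain of type I collagen, had 13.3, 15.4 and 13.1 CPM in the resistant libraries, against 0.19, 0.816 and 0.147 CPM in the parental libraries. In CHL1 the 8 markers summed to 8.8 to 10.8 CPM in the resistant libraries and 14.3 to 20.5 CPM in the parental libraries. LUM fell by 1.01 there (adjusted p = 0.00045), the only 1 of 3 tested that was called. Their part in the PDGFRA result was not tested.

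FGFR1 was called lower in CHL1 only, and IGF1R was called in neither line. FGFR1, a receptor for fibroblast growth factors, had 91.7, 91.7 and 97.2 CPM in resistant CHL1, against 127, 115 and 120 CPM in parental CHL1. The groups were well apart, and FGFR1 fell by 0.37 ± 0.05 (adjusted p = 0.00023), a call kept in all 13 alternatives. In A375 FGFR1 had 47, 47.3 and 49.3 CPM in the resistant libraries, against 50.5, 55 and 60.8 CPM in the parental libraries. The groups did not overlap there, but the log2 fold change of -0.21 ± 0.08 did not pass the threshold (adjusted p = 0.068). It passed in 3 of 13 alternatives, which were the replicate block (0.02), leaving out parental library 1 (0.023) and the fit to all 12 libraries (0.023). The change in A375 minus that in CHL1 was 0.16 ± 0.09 (adjusted p = 0.25). FGFR1 shares 138 exon bases with LETM2 on the opposite strand, which fell by 0.80 ± 0.16 in A375 (adjusted p = 0.0054).

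IGF1R, the receptor for the insulin-like growth factors, had 138, 127 and 119 CPM in resistant A375 and 146, 133 and 97 CPM in parental A375. It had 112, 99.1 and 101 CPM in resistant CHL1 and 111, 101 and 102 CPM in parental CHL1. The groups overlap in both lines. The log2 fold change of IGF1R was 0.03 (95% interval -0.23 to 0.28, adjusted p = 0.9) in A375 and -0.02 (-0.13 to 0.10, adjusted p = 0.89) in CHL1.

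Among the FGF ligands, FGF2 and FGF5 rose in A375 and FGF1 rose in CHL1. FGF2 had 34, 35.5 and 34.1 CPM in resistant A375, against 19.5, 22.4 and 23.7 CPM in parental A375, and rose by 0.66 ± 0.08 (adjusted p = 0.00053). FGF5 had 2.8, 3 and 2.76 CPM in resistant A375, against 0.912, 1.04 and 1.5 CPM in parental A375, and rose by 1.31 ± 0.20 (adjusted p = 0.0015). The resistant libraries were above all parental libraries for both ligands. FGF1 had 10.6, 10.1 and 9 CPM in resistant CHL1, against 5.55, 6.09 and 5.79 CPM in parental CHL1, and rose by 0.76 ± 0.10 (adjusted p = 0.00023). FGF1 fell by 1.01 ± 0.28 in A375 (adjusted p = 0.025), a call lost without resistant library 1 or 2 or parental library 1 (adjusted p up to 0.079). The difference itself, A375 minus CHL1, was -1.78 ± 0.29 (adjusted p = 0.00046).

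MERTK is a receptor of the TAM family, which is known for the uptake of dying cells and binds GAS6 and protein S. In A375 it was scarce, with 21, 20 and 18 counts in the resistant libraries and 10, 3 and 12 counts in the parental libraries. These are 0.709, 0.638 and 0.646 CPM in resistant A375, against 0.38, 0.111 and 0.44 CPM in parental A375. The resistant libraries were all above the parental libraries. The ratio of scaled counts was 2.14 with a 95% counting interval of 1.32 to 3.57, but the log2 fold change of 1.09 ± 0.38 was not past the threshold (adjusted p = 0.065). It was called in 2 of 12 alternatives, the fit to all 12 libraries (0.011) and the fit without parental library 3 (log2 fold change 1.43). In CHL1 MERTK had 91.8, 89.8 and 83.3 CPM in the resistant libraries and 92.4, 89.5 and 93.6 CPM in the parental libraries. The groups overlap, with a log2 fold change of -0.06 (95% interval -0.16 to 0.04, adjusted p = 0.46). The change in A375 minus that in CHL1 was 1.14 ± 0.31 (adjusted p = 0.014), a call lost without parental A375 library 2 (0.77, adjusted p = 0.089), the library with 3 counts.

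The MERTK ligands took different directions in A375. GAS6 had 4.29, 4.5 and 5.92 CPM in resistant A375, against 8.89, 9.24 and 11.1 CPM in parental A375, and fell by 0.99 ± 0.16 (adjusted p = 0.0017). PROS1, the gene of protein S, rose by 0.55 ± 0.15 in A375 (adjusted p = 0.027) and fell by 0.26 ± 0.07 in CHL1 (adjusted p = 0.019). Its call in A375 was lost without resistant library 1 or 3 or parental library 2 (adjusted p up to 0.1). Its call in CHL1 was lost with DESeq2, in the fit to all 12 libraries and without resistant library 3 or parental library 1 (adjusted p up to 0.2). The difference between the lines for PROS1 was 0.80 ± 0.17 (adjusted p = 0.0034). The other TAM receptors, AXL and TYRO3, had log2 fold changes of -0.05 ± 0.11 and 0.00 ± 0.06 in A375. In CHL1 AXL fell by 0.43 ± 0.07 (adjusted p = 0.0011) and TYRO3 was at 0.11 ± 0.06.

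KIT, the receptor for stem cell factor, was at or under the floor of 3 counts in every A375 library. It had 1, 0 and 0 counts in the resistant libraries and 3, 2 and 3 counts in the parental libraries. No fold and no test are given for it.

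The resistance effect was then compared between the lines for the 8 receptors listed in both tables. It differed for PDGFRB and MERTK, 2 of 8, beside 23.6% of all 19241 genes tested (11.7% higher and 11.9% lower in A375 minus CHL1). For the other 6 the difference, A375 minus CHL1, ran from -0.59 ± 0.33 for ERBB3 (adjusted p = 0.23) to 0.37 ± 1.09 for EGFR (adjusted p = 0.86). The 95% interval of the EGFR difference is wide, -1.77 to 2.51, and EGFR had 19 counts over the 6 CHL1 libraries.

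Line against line, EGFR was an A375 gene and MERTK a CHL1 gene in both states. EGFR had 4367 counts over the 3 resistant A375 libraries and 7 over the 3 resistant CHL1 libraries, a ratio of scaled counts of 561 with a 95% counting interval of 272 to 1395. In the parental state it had 5135 counts in A375 and 12 in CHL1, a ratio of 424 with an interval of 243 to 822. MERTK had 59 counts in resistant A375 and 7038 in resistant CHL1, and 25 counts in parental A375 and 7335 in parental CHL1. CHL1 was thus higher in MERTK by 133-fold (103 to 175) in the resistant state and by 296-fold (200 to 457) in the parental state. Line, table and, for the resistant pair, months of treatment cannot be told apart.

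ERBB2, ERBB3 and FGFR1 were lower in A375 than in CHL1. In the resistant state the log2 fold change of A375 over CHL1 was -2.06 ± 0.24 for ERBB3 (adjusted p = 1.6e-06), -1.37 ± 0.09 for ERBB2 (adjusted p = 3.4e-09) and -0.97 ± 0.07 for FGFR1 (adjusted p = 2.6e-09). In the parental state it was -1.46 ± 0.24 for ERBB3, -1.29 ± 0.09 for ERBB2 and -1.12 ± 0.07 for FGFR1. PDGFRB was higher in parental A375 than in parental CHL1, by 1.31 ± 0.21 (adjusted p = 5e-05). Between the resistant derivatives, where it had fallen in A375, it was at -0.07 ± 0.22 (adjusted p = 0.77). MET was at 0.01 ± 0.09 between the resistant derivatives (adjusted p = 0.89) and at 0.23 ± 0.09 between the parental lines (adjusted p = 0.024). The MET call between parental lines was lost without parental A375 library 3 or parental CHL1 library 1 or 2 (adjusted p up to 0.13). IGF1R was higher in A375 by 0.30 ± 0.11 in the resistant state (adjusted p = 0.026), a call lost without resistant A375 library 1 or resistant CHL1 library 2 or 3 (adjusted p up to 0.1). It was higher by 0.26 ± 0.11 in the parental state (adjusted p = 0.049), in 7 of 19 alternatives only, and 9 of the 12 libraries ended that call when left out (adjusted p up to 0.27). By these calls 6 of 8 receptors differed between the resistant derivatives, 2 higher and 4 lower in A375, where 76.6% of all genes tested did (38% higher, 38.6% lower). Between the parental lines all 8 differed, 4 higher and 4 lower in A375, where 75.6% of all genes did (38.2% higher, 37.4% lower).

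**Figure D3:**
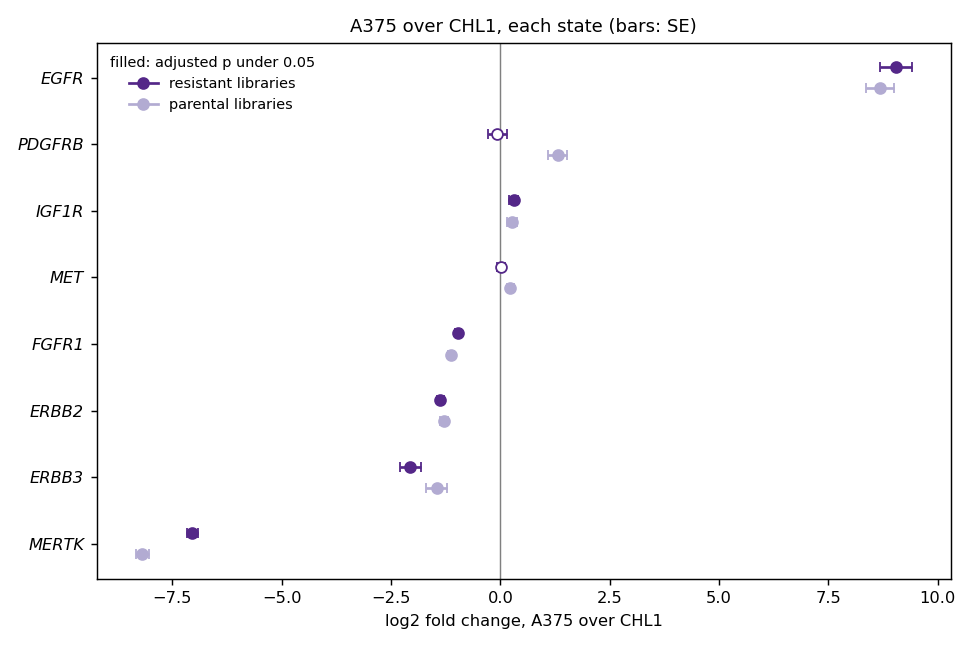
Log2 fold change of A375 over CHL1 (x axis) for the 8 receptors listed in both tables (y axis), between the resistant derivatives and between the parental lines. Points are edgeR estimates, bars their SE, and filled points have an adjusted p below 0.05. EGFR lies between 8.68 and 9.05 and MERTK between -8.19 and -7.04, and PDGFRB lies at -0.07 between the resistant and at 1.31 between the parental libraries.

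To set the receptors side by side, normalised CPM was divided by exon length in kilobases (CPM per kb). Exon length is the union of all annotated exons of a gene, which can exceed the length of the mRNA made. The order therefore depends on the annotation, and transcript use was not measured. In CHL1, for example, ERBB2 had more CPM than MERTK but less CPM per kb. By this measure MET had the highest mean in A375 and ERBB3 in CHL1. In resistant A375 the order was MET at 24.2, ERBB3 at 15, IGF1R at 9.16, ERBB2 at 6.11, EGFR at 3.91, FGFR1 at 3.46, PDGFRB at 0.507, PDGFRA at 0.45, MERTK at 0.141 and KIT at 0.00202 CPM per kb. The libraries of ERBB3 overlapped those of IGF1R, those of EGFR overlapped FGFR1, and those of PDGFRB overlapped PDGFRA. In parental A375 the order was the same, with MET at 36.6, ERBB3 at 23.5, IGF1R at 8.99, ERBB2 at 6.34, EGFR at 5.08, FGFR1 at 4, PDGFRB at 1.13, PDGFRA at 0.153, MERTK at 0.066 and KIT at 0.0179 CPM per kb. There MET overlapped ERBB3, and EGFR overlapped both ERBB2 and FGFR1. Per kb the PDGF receptors were level in resistant A375, where PDGFRB had stood well above PDGFRA in parental A375.

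In resistant CHL1 the order was ERBB3 at 62.3, MET at 24, MERTK at 18.8, ERBB2 at 15.8, IGF1R at 7.45, FGFR1 at 6.76, PDGFRB at 0.534 and EGFR at 0.00698 CPM per kb. In parental CHL1 it was ERBB3 at 64.6, MET at 31.1, MERTK at 19.5, ERBB2 at 15.5, FGFR1 at 8.73, IGF1R at 7.51, PDGFRB at 0.455 and EGFR at 0.0122 CPM per kb. No neighbours in these orders overlapped in CHL1, and IGF1R stood above FGFR1 in the resistant libraries and below it in the parental libraries. ERBB3 held 45.9% of the summed per-kb level of the listed receptors in resistant CHL1 and 43.8% in parental CHL1. MET held 38.5% in resistant A375 and 42.7% in parental A375.

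The genes around each receptor on its chromosome were set beside it, taking the 20 nearest of at least 1 CPM, 10 on each side in the order of GENCODE release 29. The median log2 fold change of those neighbours was between -0.13 and 0.13 in every case. In A375 PDGFRA and MERTK were above all 20 of their neighbours, and PDGFRB and ERBB3 below all 20. MET stands beside the caveolin genes, and these were lower as well. In A375 CAV2 fell by 0.62 ± 0.15 (adjusted p = 0.013) and CAV1 by 0.52 ± 0.17 (adjusted p = 0.045). In CHL1 CAV2 fell by 0.24 ± 0.07 (adjusted p = 0.036) and CAV1 was at -0.42 ± 0.15 (adjusted p = 0.072). CAPZA2 on the other side of MET was at -0.06 ± 0.05 in A375 and -0.07 ± 0.04 in CHL1. Of all 20 neighbours of MET, 4 rose and 5 fell in A375, where 13.4% of all genes rose and 14.8% fell. In CHL1 1 rose and 6 fell, where 9.11% of all genes rose and 12.1% fell. MET was at or above 2 of the 20 in A375 and 6 of the 20 in CHL1. In CHL1 FGFR1 was above 1 of its 20 neighbours. Chromosome copy number was not measured.

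**Figure D4:**
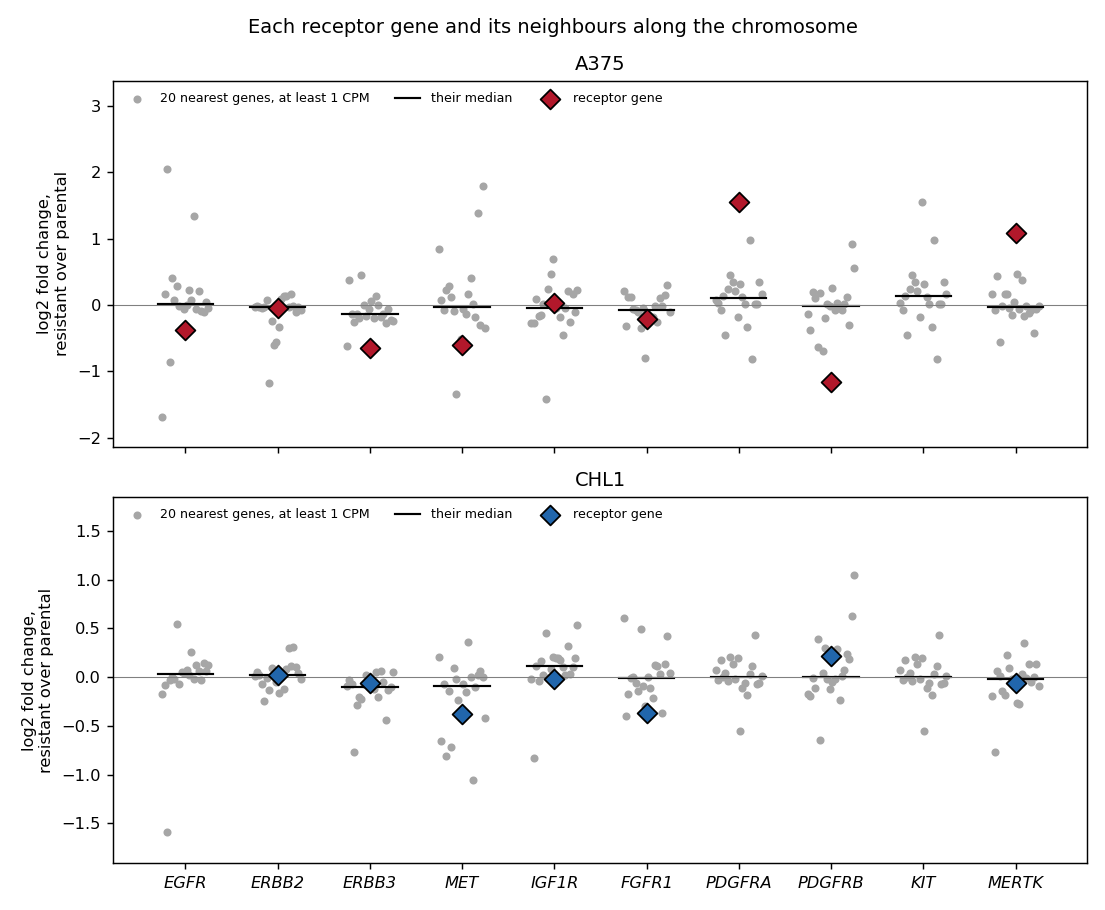
Log2 fold change of resistant over parental (y axis) for each receptor gene (diamond) and its 20 nearest genes of at least 1 CPM (grey points, line at their median), in A375 above and CHL1 below. KIT has no diamond, nor do EGFR and PDGFRA in CHL1, because they were not tested. PDGFRA at 1.55 and MERTK at 1.09 lie above, and PDGFRB at -1.16 and ERBB3 at -0.65 below, all of their neighbours in A375.

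Of 48 other receptor tyrosine kinases 36 were tested in A375, of which 7 rose and 13 fell (55.6% called, median log2 fold change -0.20). In CHL1 34 were tested, of which 3 rose and 12 fell (44.1% called, median -0.05). Of all genes 28.3% were called in A375 and 21.2% in CHL1. MST1R, the relative of MET that binds macrophage-stimulating protein, had 0.742, 1.08 and 1.08 CPM in resistant A375, against 3.65, 3.86 and 4.77 CPM in parental A375, and fell by 2.07 ± 0.20 (adjusted p = 0.00014). EPHA6, an ephrin receptor, rose by 2.24 ± 0.25 and DDR1, a collagen receptor, fell by 0.64 ± 0.07 in A375. In CHL1 FLT3, the relative of KIT and the PDGF receptors that binds FLT3 ligand, had 0.893, 1.12 and 0.907 CPM in the resistant libraries, against 4.33, 4.64 and 4.39 CPM in the parental libraries. It fell by 2.19 ± 0.15 (adjusted p = 2.5e-06). The ephrin receptor EPHA7 fell by 0.87 ± 0.07 in CHL1 (adjusted p = 6e-06) and rose by 0.69 ± 0.19 in A375 (adjusted p = 0.023), the second lost without resistant library 1 or 3 (adjusted p up to 0.089). The difference for EPHA7, A375 minus CHL1, was 1.55 ± 0.21 (adjusted p = 0.00011). EPHB6 rose by 0.54 ± 0.06 in CHL1 (adjusted p = 0.0001).

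Of 30 ligands of the receptors 22 were tested in each line. In A375 7 rose and 4 fell (50%, median log2 fold change -0.07), and in CHL1 2 rose and 5 fell (31.8%, median -0.12). The shares called over all genes tested were 28.3% in A375 (13.4% up, 14.8% down) and 21.2% in CHL1 (9.11% up, 12.1% down). The 4 ligands with the smallest adjusted p were HGF, FGF2, PDGFD and FGF5 in A375, all higher, and EGF, HBEGF, FGF1 and PDGFB in CHL1, of which EGF and FGF1 were higher. The other ligands named were chosen after their values were seen. Of these IGF2, a ligand of IGF1R, fell by 0.72 ± 0.20 in CHL1 (adjusted p = 0.021), a call lost in the fit to all 12 libraries and without resistant library 2 or 3 or parental library 1 or 2 (adjusted p up to 0.097).

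**Figure D5:**
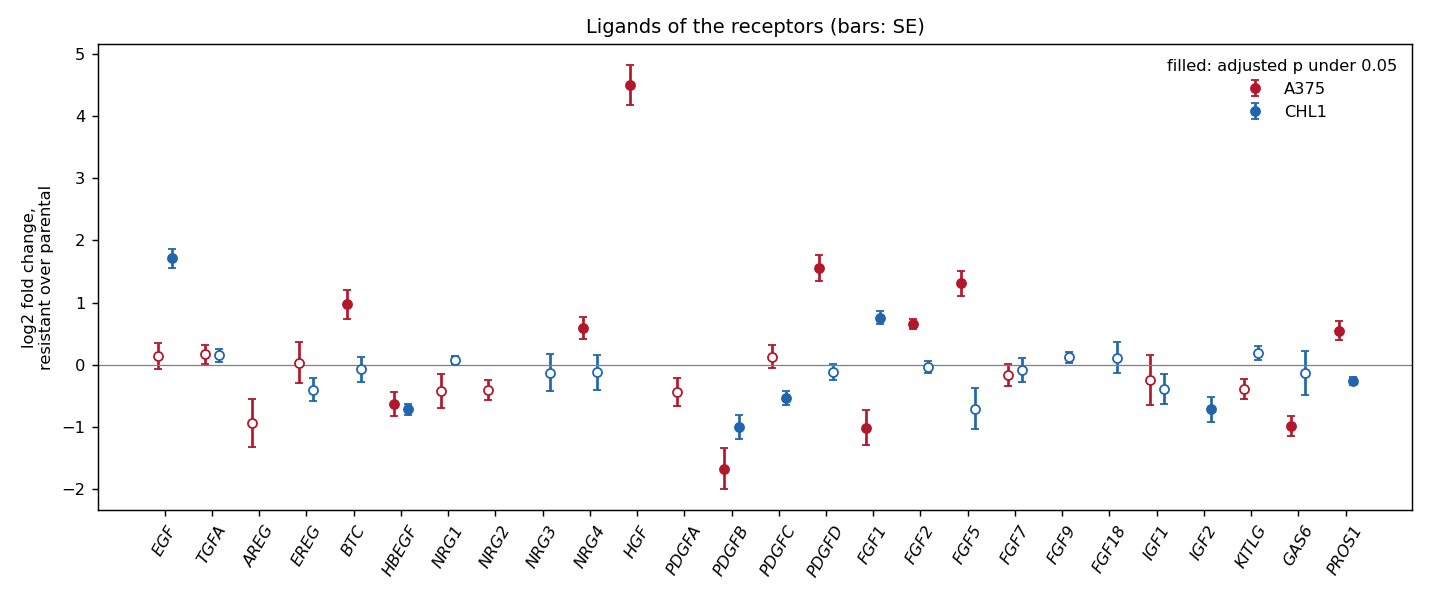
Log2 fold change of resistant over parental (y axis) for each ligand gene tested (x axis), in A375 and CHL1. Points are edgeR estimates, bars their SE, and filled points have an adjusted p below 0.05. HGF lies at 4.50 in A375, PDGFB is below 0 in both lines, and FGF1 lies at -1.01 in A375 and 0.76 in CHL1.

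Downstream of the receptors, 3 adaptors and signal transducers rose and 3 fell of 22 tested in A375 (27.3%, median 0.03). In CHL1 2 rose and 2 fell of 21 (19%, median 0.01). These shares are near those of all genes, 28.3% in A375 and 21.2% in CHL1, and are not a result about the list. SHC1, the adaptor that links receptors to GRB2 and RAS, rose by 0.32 ± 0.04 in A375 (adjusted p = 0.00075) and 0.34 ± 0.04 in CHL1 (adjusted p = 0.00013). PIK3CB, a catalytic subunit of PI3K, fell by 0.37 ± 0.07 in A375 (adjusted p = 0.0035) and 0.42 ± 0.06 in CHL1 (adjusted p = 0.00044). In A375 IRS2, an adaptor of IGF1R, had a mean of 106 ± 4.02 CPM in the resistant libraries and 185 ± 35.4 CPM in the parental libraries (SD, n = 3 each), and fell by 0.80 ± 0.12 (adjusted p = 0.0013). PIK3R2, a regulatory subunit of PI3K, fell by 0.62 ± 0.06 (adjusted p = 0.00012). In CHL1 PIK3CA, another catalytic subunit, fell by 0.26 ± 0.06, and IRS1 rose by 0.28 ± 0.08. The IRS1 call was lost in the fit to all 12 libraries and without resistant library 2 or 3 or parental library 1 or 2 (adjusted p up to 0.16).

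Negative regulators of receptor signalling were called in 42.9% of 21 tested in A375, 7 up and 2 down with a median log2 fold change of 0.11. In CHL1 22.7% of 22 were called, 3 up and 2 down with a median of -0.03. Beside them, 28.3% of all genes were called in A375 (13.4% up, 14.8% down) and 21.2% in CHL1 (9.11% up, 12.1% down). The share in CHL1 is near that of all genes and is not a result about these regulators. GRB10, which binds the insulin and IGF1 receptors and restrains them, had 25.5, 17.4 and 21.5 CPM in resistant A375, against 7.22, 4.56 and 3.78 CPM in parental A375. Every resistant library was above every parental library, and GRB10 rose by 2.05 ± 0.23 (adjusted p = 0.00028). In CHL1 GRB10 was at 127 to 138 CPM in the resistant libraries and 129 to 141 CPM in the parental libraries, a log2 fold change of -0.03 ± 0.05. The difference between the lines was 2.07 ± 0.22 (adjusted p = 1.3e-05). SPRY1, an inhibitor of RAS-MAPK signalling below receptors, rose by 0.67 ± 0.10 in A375 (adjusted p = 0.0016). LRIG1, which promotes the breakdown of EGF receptor family members, rose by 0.45 ± 0.10 in A375 (adjusted p = 0.011) and fell by 0.44 ± 0.08 in CHL1 (adjusted p = 0.0021), a difference of 0.89 ± 0.13 (adjusted p = 0.00014). GRB14, a relative of GRB10, rose by 1.05 ± 0.26 in A375 at under 1 CPM in both groups, a call lost with DESeq2 and without resistant library 1 or parental library 1 or 3 (adjusted p up to 0.15). CBLB, a ubiquitin ligase of receptors, fell by 0.56 ± 0.08 in CHL1 (adjusted p = 0.00027) and rose by 0.46 ± 0.13 in A375 (adjusted p = 0.032), the second lost without resistant library 1 or 2 or parental library 2 or 3 (adjusted p up to 0.11). The difference for CBLB was 1.01 ± 0.16 (adjusted p = 0.00028). In CHL1 DOK1 rose by 0.61 ± 0.09 and the phosphatase PTPRJ by 0.36 ± 0.06.

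PDGFRB had the largest called change among the receptors listed in both tables, and the genes most like it over the 12 libraries were sought by the Pearson correlation of log2 normalised CPM among 14862 genes of at least 1 CPM on average. The highest were C16orf74 (r = 0.954), LINC01569 (r = 0.943) and TNFRSF8 (r = 0.935). TNFRSF8, which encodes the receptor CD30, averaged 0.287 CPM in resistant A375 and 4.06 CPM in parental A375, and 0.599 CPM in resistant CHL1 and 0.211 CPM in parental CHL1. These correlations are a description of 12 libraries that fall into 4 groups, and PDGFRB and all 3 of these genes had their highest mean in parental A375.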

How the data were processed

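The authors deposited whole-number read counts per gene, not normalised, in a table for A375 and another for CHL1. Tools listed in the submitters' processing notes are HTSeq 0.5, TopHat2, limma, cutadapt 1.7 and CASAVA 1.8.2. Per the labels' protocols, total RNA was extracted and libraries were made with the TruSeq RNA v2 kit, which does not mark strand. Which genome build and annotation were counted on is not given in the sources used here. Coordinates are therefore printed for RefSeq promoters only. GENCODE release 29 gave exon lengths (for CPM per kb), gene order and overlaps. All 12 columns were used, and groups came from the sample labels.

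Each line was fitted on its own, and the line comparisons and the difference between lines in 1 fit of all 12 libraries over genes in both tables, in R 4.3.3 with edgeR 4.0.16 (TMM factors, filterByExpr with a minimum count of 10, quasi-likelihood F-test, two-sided). Benjamini-Hochberg adjustment ran over all genes tested, and a gene was called at an adjusted p below 0.05. Alternatives were RLE size factors, DESeq2 1.42.0, limma voom 3.58.1, no filter, a filter of at least 1 CPM in 3 libraries, the replicate number as a block, leaving out each library, and the other set of libraries or genes. On simulated data with 200 changed genes, the A375 fit over 18086 genes recovered 64% of 1.5-fold and 94% of 2-fold changes. The CHL1 fit over 17219 genes recovered 86% and 98%, and the difference over 19241 genes 48% and 88%. The changed genes were drawn from those averaging at least 1 CPM, so the shares do not cover genes below that, such as MERTK in A375. Far fewer genes were changed in the simulation than were called in the data. Counting intervals are exact (95%) and cover counting error only. The SE of a log2 fold change in the edgeR fits was derived from that change and its F statistic. The 95% intervals on log2 fold changes are 1.96 SE to each side. They are approximate and narrower than the test implies. ERBB3 in A375 had -1.22 to -0.07, without 0, at an unadjusted quasi-likelihood p of 0.055. No libraries within a group agreed within sampling noise.

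The members and lists were chosen with earlier results of these data known. Named genes were the 10 receptors, the up to 4 called genes with the smallest adjusted p of each list in each line, the 3 genes most correlated with a receptor called at 2-fold and listed in both tables, and the nearest neighbours. Any further gene was picked with its values in view. A gene that rule gives is not reported here.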

Additional observations from a re-analysis of the deposited data

Results flagged for a closer look

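The resistance effect differed between the lines for PDGFRB and MERTK, by the test of the difference itself. For PDGFRB the log2 fold change in A375 minus that in CHL1 was -1.39 ± 0.31 (adjusted p = 0.0044), with a fall of 1.16 ± 0.25 in A375 and a change of 0.22 ± 0.13 in CHL1. For MERTK it was 1.14 ± 0.31 (adjusted p = 0.014), with 1.09 ± 0.38 in A375 and -0.06 ± 0.05 in CHL1. The MERTK change was not called in the fit of A375 alone (adjusted p = 0.065). The difference comes from the fit of all 12 libraries, in which the lines share an estimate of each gene's spread. MERTK rests on 59 counts in resistant A375 and 25 counts in parental A375, and without parental A375 library 2 the difference was 0.77 (adjusted p = 0.089).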

How the results depend on the processing

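Of 662 values of single receptors under the alternatives, 617 kept their direction and their side of the threshold, 8 passed it only under the alternative, 19 no longer passed it and 18 changed sign. All 18 were values near 0 that the test had not called, and 17 of them came from leaving out a library. Over those fits ERBB2 ran from -0.17 to 0.02 in A375, from -0.01 to 0.06 in CHL1 and from -0.17 to 0.03 for the difference between lines. IGF1R ran from -0.13 to 0.15 in A375, from -0.08 to 0.03 in CHL1 and from -0.12 to 0.16 for the difference. Between the resistant derivatives MET ran from -0.06 to 0.09, and was -0.01 without a filter on low counts, and PDGFRB ran from -0.17 to 0.02. The cause was not tested. With the replicate numbers as a block, 5 receptors were called in A375 (1 up, 4 down) against 3 without it, ERBB3 and FGFR1 being added. With each group's mean taken out, same-numbered libraries had correlations of 0.263, 0.274 and -0.00679 in A375. Libraries of unlike number had -0.311 to 0.0712 there. In CHL1 same-numbered libraries had 0.146, 0.00665 and 0.0328, and those of unlike number -0.0962 to 0.07. Over all genes the block called 3016 higher and 3291 lower in A375, against 2426 and 2685 without it. Whether the numbers mark a shared batch was not tested. Leaving out 1 library gave 3 to 4 receptors called in A375, 2 to 2 in CHL1, 1 to 2 for the difference between lines, 6 to 8 between the parental lines and 5 to 6 between the resistant derivatives. The count of 1 came without parental A375 library 2. Over all genes those fits called 3782 to 4738 in A375 (5111 with all libraries), 2634 to 3297 in CHL1 (3645), 3760 to 4519 for the difference (4536), 14123 to 14740 between the parental lines (14550) and 14299 to 14992 between the resistant derivatives (14740). Of 104 called values of other genes, 81 stayed called in every alternative and none changed sign. Depth limits KIT, MERTK in A375 and EGFR in CHL1, which have few counts.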

Other observations

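IGF binding proteins hold insulin-like growth factors away from IGF1R or present them to it. Of 6 tested in A375 none rose and 1 fell (16.7% called), where 28.3% of all genes were called. In CHL1 2 of 6 rose and 2 fell (66.7% called), where 21.2% of all genes were called. IGFBP7 averaged 8.89 ± 1.8 CPM in resistant A375 and 20 ± 1.01 CPM in parental A375, and 26.9 ± 3.43 CPM in resistant CHL1 and 36.6 ± 2.19 CPM in parental CHL1 (SD, n = 3 each). It fell by 1.16 ± 0.14 in A375 (adjusted p = 0.0004) and by 0.45 ± 0.08 in CHL1 (adjusted p = 0.0027). IGFBP5 averaged 2752 ± 139 CPM in resistant CHL1 and 1938 ± 116 CPM in parental CHL1 and rose by 0.50 ± 0.05, a call lost in the fit to all 12 libraries (adjusted p = 0.47). IGFBP2 fell by 1.14 ± 0.15 and IGFBP4 rose by 0.48 ± 0.10 in CHL1.

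Coreceptors hold ligands at the cell surface and sheddases cut ligands or receptors free. In A375 1 of 13 tested rose and 3 fell (30.8% called), and in CHL1 1 of 12 rose and 1 fell (16.7% called). Over all genes 28.3% were called in A375 and 21.2% in CHL1, so these counts are near the shares of all genes and are not a result about the list. SDC1, a heparan sulphate proteoglycan, fell by 0.83 ± 0.10 (adjusted p = 0.00054) and the protease ADAM12 by 0.75 ± 0.16 (adjusted p = 0.0072) in A375. ADAM9 fell by 0.26 ± 0.08 and ADAM15 rose by 0.25 ± 0.07 in A375. Both calls were lost without resistant library 1 or 3 or parental library 2, that of ADAM9 also without parental library 3 and that of ADAM15 without parental library 1 (adjusted p up to 0.11). In CHL1 CD44, a coreceptor of MET, rose by 0.53 ± 0.05 (adjusted p = 4.3e-05), and the proteoglycan SDC4 fell by 0.38 ± 0.08, a call lost in the fit to all 12 libraries (adjusted p = 0.062). CSF1R, a relative of KIT and the PDGF receptors chosen after its value was seen, averaged 0.199 ± 0.0898 CPM in resistant A375 and 0.807 ± 0.127 CPM in parental A375 and fell by 1.97 ± 0.34 (adjusted p = 0.0028).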
